A study of Mus musculus with 6 samples.

Results

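Mouse osteoblasts kept in differentiation medium with cabozantinib were compared with osteoblasts kept in the same medium without the drug. The comparison used 4 of the 6 gene arrays of the series, 2 cabozantinib arrays and 2 control arrays, chosen by their sample titles, and every gene measured on all 4. The cells were primary bone-forming cells from the calvaria (skull caps) of CD1 mice aged 2 to 5 days, and no genetic change is named for them. They were grown to confluence in MEM with 10% FBS and then kept for 30 days in differentiation medium alone (control) or in that medium plus cabozantinib (also called XL184). The labels give 30 days and no dose. The study's methods also give 30 days for the array samples, and they state a dose for the differentiation assay. Its results text gives an earlier day for its arrays. The other 2 arrays hold undifferentiated cells taken at confluence, and their values are set beside the others without a test. The labels do not say whether the 2 samples of a group came from separate cultures, so the p-values measure only the spread between these samples, which may be technical. Both control arrays lay on the slide that also held the undifferentiated samples, and both cabozantinib arrays lay on another slide. Slide and drug therefore cannot be told apart in any value below.

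Cabozantinib is a tyrosine kinase inhibitor that blocks VEGFR2 and MET, and also RET, AXL and KIT. Such receptors signal through RAS and ERK to early response genes and to feedback inhibitors that limit the same pathway. Osteoblasts secrete large amounts of collagen, which loads the endoplasmic reticulum (ER) and draws on the supply of amino acids. The transcription factor ATF4, which is needed for late osteoblast differentiation, turns on genes of amino acid import and synthesis, and the unfolded protein response turns on ER chaperones and the machinery that removes misfolded proteins. Osteoblasts also rely on glycolysis, and the factor HIF1 turns on glycolytic genes when oxygen is low.

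Levels are given for 1 probe per gene, the one with the highest mean signal over the 4 arrays, as log2 signal relative to the 75th percentile of its array, so that a level of 0 is the 75th percentile. A gene was kept when the scanner's own flag put its probe well above background on all 4 arrays, which left 18157 genes, 13345 of them with a gene name. Of the 43020 spots per array, 64.8% and 67.4% were well above background for control and 58.9% and 58.8% for cabozantinib. A gene was called higher or lower with cabozantinib at a limma p-value adjusted by the Benjamini-Hochberg method under 0.05. The cultures carried osteoblast genes in both groups. Col1a1, the main collagen of bone, was at 7.38 and 8.06 in the control samples and at 7.35 and 7.64 with cabozantinib, and Alpl, the alkaline phosphatase of mineralizing cells, was at 3.96 and 4.12 against 4.09 and 4.38. Runx2 and Sp7, the defining osteoblast transcription factors, were not well above background on all 4 arrays and were not compared.

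In all, 2911 genes were called (16.0% of those tested), 534 higher (2.94%) and 2377 lower (13.1%) with cabozantinib. Of all genes tested, 14.6% had both cabozantinib arrays above both control arrays and 37.1% had both below, so a separation of the 4 values was itself common. The excess of lower genes lay among the dim ones. In the dimmest quintile of genes the median log2 change was -0.71 and 33.2% of the genes were called lower, whereas in the brightest quintile the median was -0.14 and 0.964% were called lower. The median over all genes was -0.19, and quantile normalization moved it to -0.02. Olfactory receptors, a family of nasal neurons, were called lower in 125 of 182 cases, with a median of -1.44 (-0.93 with quantile normalization). Changes of genes in the dimmest quintile are therefore given with their quantile-normalized change beside them. The share of higher genes among those with an unadjusted p under 0.05 was 25% with the 75th-percentile scaling and 39.8% with quantile normalization.

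**Figure D1:**
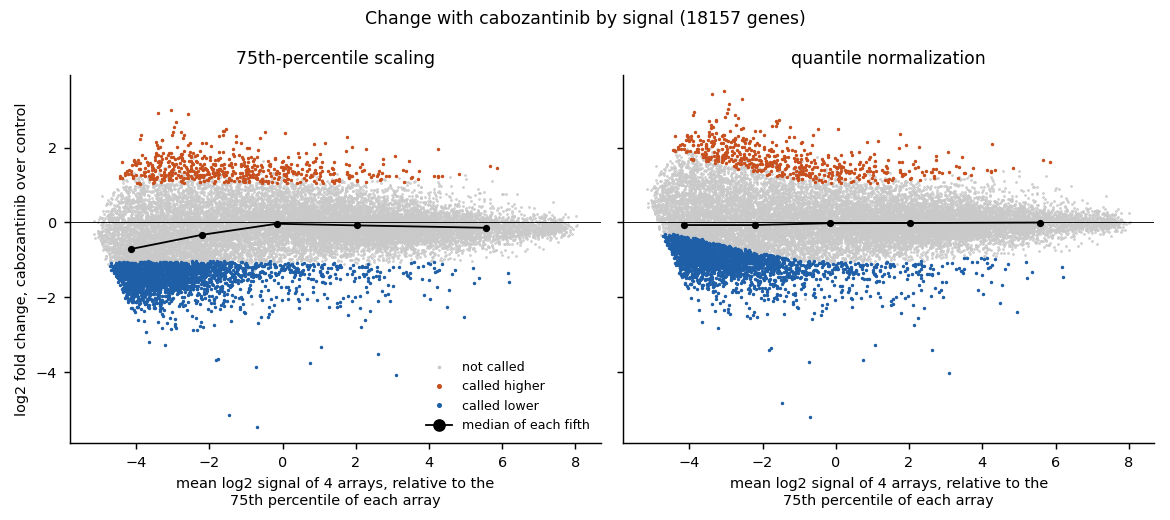
Log2 fold change (cabozantinib over control, y axis) against mean log2 signal of the 4 arrays (x axis) for 18157 genes, with 75th-percentile scaling on the left and quantile normalization on the right. Each point is a gene, colored in both panels by the call made with 75th-percentile scaling, and the black line joins the median of each quintile of signal. The line starts at -0.71 at the dim end on the left and lies between -0.07 and -0.00 on the right.

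The number of calls rested on the scaling and on single samples. With quantile normalization limma called 0 genes, with a smallest adjusted p of 0.0653, although 4469 genes had an unadjusted p under 0.05. Of the 2911 genes called, 2538 also had an unadjusted p under 0.05 in the same direction with quantile normalization, and 0 changed direction. The smallest log2 change called was 1.03, larger than the shift of any quintile median between the 2 scalings. A change of direction was therefore unlikely from the start. Without cabozantinib replicate 1 limma called 180 genes, and without cabozantinib replicate 2 it called 1090. Without control replicate 1 it called 4604. With the undifferentiated arrays in the same fit it called 1. A set of 1744 genes (9.61%) was called, had separate values in the 2 groups and changed over 2-fold with each of 3 scalings, which were the 75th percentile, quantile normalization and the authors' own values. The last 2 gave nearly the same values, with medians over all genes of -0.024 and -0.021, and are not separate checks. Of these, 529 were higher (2.91%) and 1215 were lower (6.69%). Where a gene had another kept probe, that probe lay on the other side of 0 for 28 of 53 genes called higher and for 25 of 131 called lower, and the called genes printed here whose probes differed in sign are given with both.

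Functional programs were then described with 42 hand-written gene lists. The lists with the lowest medians were the ATF4 and amino acid genes, the ER chaperones and unfolded protein response, complement, and glycolysis with the hypoxia response. MHC class II, mitosis and the actin and smooth muscle genes had the highest. Most lists of cell maintenance, among them ribosomal proteins, oxidative phosphorylation, the spliceosome and chromatin regulators, had medians between -0.13 and -0.02 and at most 2 called members.

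**Figure D2:**
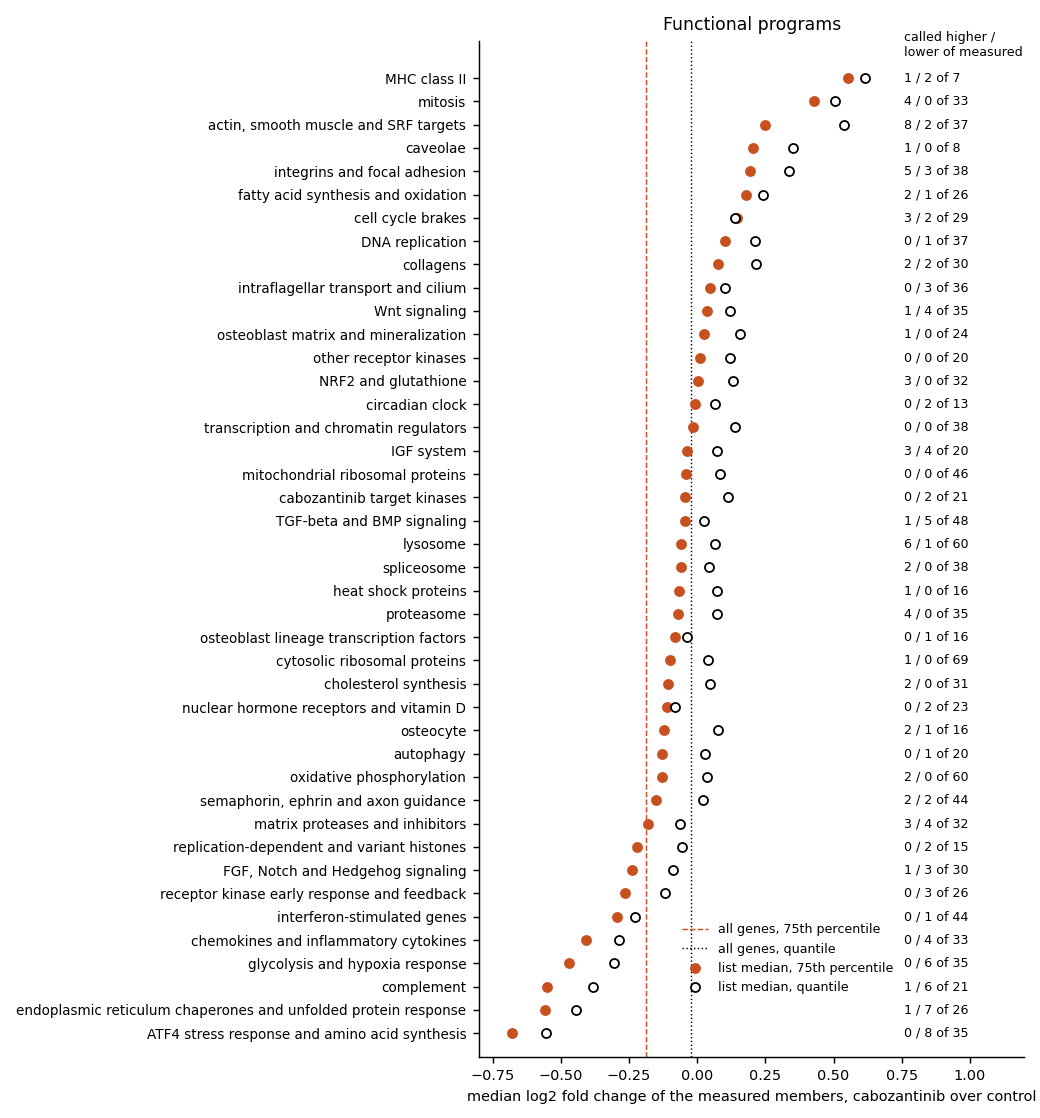
Median log2 fold change (cabozantinib over control, x axis) of the measured members of 42 gene lists (y axis), with 75th-percentile scaling as filled points and quantile normalization as open points. The dashed and the dotted line mark the medians of all genes (-0.19 and -0.02), and the column on the right gives the members called higher and lower of those measured. ATF4 targets are lowest at -0.68 and mitosis is at 0.43.

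Part of the genes of the ATF4 response and of amino acid supply were called lower with cabozantinib. Of 35 measured members, 8 were lower (22.9%, against 13.1% of all genes) and 0 higher, and the list median was -0.68 (-0.55 with quantile normalization). Both cabozantinib arrays lay below both control arrays for 20 members (57.1%, against 37.1% of all genes) and above them for 1 member. The median level of the members was 2.19, in a quintile (0.97 to 3.09) in which 2.59% of all genes were called lower. Trib3, a pseudokinase that ATF4 induces and that in turn restrains ATF4, showed the largest change of the program. Its level was 5.57 and 4.71 in the control samples and 0.75 and 1.36 with cabozantinib, while the undifferentiated cells were at 5.54 and 4.38. The cabozantinib samples alone were low, by 4.08 on the log2 scale or 17.0-fold (SE 0.39, adjusted p = 6.1e-06). Atf4 itself was at 6.81 and 7.28 in the control samples and at 6.07 and 6.59 with cabozantinib, a difference of -0.71 that did not pass the test (adjusted p = 0.217), with all 4 values separate.

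Of 8 enzymes of amino acid synthesis 3 were called lower, and of 7 transporters 2. Asns, asparagine synthetase, was at 6.22 and 5.86 in the control samples against 4.2 and 4.64 with cabozantinib (log2 fold change -1.62, SE 0.36, adjusted p = 0.00577). Phgdh, the entry enzyme of serine synthesis, was at 2.12 and 1.50 against 0.26 and 0.52 (-1.42, adjusted p = 0.0123), and its other probe gave -0.88. The groups did not overlap for either enzyme. Psph, the last enzyme of serine synthesis, changed by -1.44 (adjusted p = 0.00977), with -0.44 at its other probe, and Psat1, between the pair, had -1.03 (adjusted p = 0.0601). Slc7a1, the main importer of arginine and lysine, changed by -1.50 (adjusted p = 0.00778), and Slc7a3, a related arginine importer, was at 0.05 and -2.05 in the control samples against -3.86 and -3.90 (-2.88, SE 0.48, adjusted p = 0.00126). The control samples of Slc7a3 stood far apart but both above the cabozantinib samples. Gdf15, a secreted stress hormone, changed by -1.30 (adjusted p = 0.0183) and Eif4ebp1, the translation repressor, by -1.07 (adjusted p = 0.0464). None of the 8 measured aminoacyl-tRNA synthetases was called, and 5 of them had separate, lower values (37.1% of all genes did). Slc38a2, a glutamine and alanine importer, had the highest change of the list at 1.14 and was not called.

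ATF4 binds a composite C/EBP-ATF element, here searched for as TGATGNAA on both strands of the RefSeq promoter sequences (build GRCm38.p6, 250 bases before to 50 after the start of a gene). The element was present in 8 of 28 list members with a promoter sequence, in 2.97% of all kept genes with one and in 3.97% of all 32851 promoters. Of the 6 called members with a sequence, Trib3 and Asns held it, and the other members that held it were not called. Their promoters are shown because these were the most changed regulator and the most changed synthesis enzyme of the program, with the match in capitals. Both lie on the minus strand, Trib3 at chr2:152344011-152344310 and Asns at chr6:7693160-7693459.
Trib3: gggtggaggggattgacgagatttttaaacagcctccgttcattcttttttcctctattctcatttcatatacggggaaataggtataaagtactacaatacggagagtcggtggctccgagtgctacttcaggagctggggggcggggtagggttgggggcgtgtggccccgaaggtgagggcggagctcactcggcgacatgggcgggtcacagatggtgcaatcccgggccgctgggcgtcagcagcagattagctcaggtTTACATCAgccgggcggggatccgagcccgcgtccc
Asns: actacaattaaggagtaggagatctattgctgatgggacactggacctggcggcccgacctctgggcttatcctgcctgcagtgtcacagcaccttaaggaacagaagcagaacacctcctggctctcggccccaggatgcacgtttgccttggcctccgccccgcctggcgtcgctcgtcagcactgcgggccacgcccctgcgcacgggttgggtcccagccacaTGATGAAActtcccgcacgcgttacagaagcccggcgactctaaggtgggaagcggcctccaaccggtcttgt
A match describes these letters only and is not evidence of binding in these cells. The lists searched for elements here and below were written by hand for these responses. A share above that of all genes was therefore likely from the start.

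The ER chaperones and unfolded protein response gave 7 members called lower and 1 higher of 26 measured (26.9% and 3.85%, against 13.1% and 2.94% of all genes), with a median of -0.56 (-0.44 with quantile normalization). Derl3, which helps pull misfolded proteins out of the ER, was at -0.39 and -2.84 in the control samples and at -4.55 and -4.40 with cabozantinib (log2 fold change -2.85, SE 0.52, adjusted p = 0.002). The control samples were far apart but both higher. Pdia4, a disulfide isomerase, was at -0.69 and -0.25 against -2.42 and -2.71 (-2.09, adjusted p = 0.00148), and Sdf2l1, a chaperone partner, was at 0.87 and 0.15 against -1.28 and -1.32 (-1.81, adjusted p = 0.0035). For Pdia4 the cabozantinib values were near those of undifferentiated cells (-2.57 and -2.83), and only the control samples were high. Ero1a, the oxidase that recharges disulfide isomerases, fell by 1.54 on the log2 scale (adjusted p = 0.0122), Creld2 by 1.36 (adjusted p = 0.0159), Herpud1, of the degradation machinery, by 1.31 (adjusted p = 0.022) and Ern1, the sensor IRE1, by 1.20 (adjusted p = 0.0487). Ern1 had a dim signal of -1.86 and -3.15 in the control samples and -3.80 and -3.61 with cabozantinib, and a change of -0.72 with quantile normalization. Atf6, another sensor, was the member that rose, from -4.08 and -4.47 to -2.31 and -3.31 (1.46, or 2.04 with quantile normalization, adjusted p = 0.0142), at a dim probe. The abundant chaperone Hspa5 (BiP) was at 7.43 and 7.52 in the control samples and at 6.56 and 6.97 with cabozantinib, a difference of -0.71 that did not pass (adjusted p = 0.205), and Xbp1 had -0.34 (adjusted p = 0.631).

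The size of the ER shift depended on single samples. Without control replicate 1 the list had a median of -0.29, and without control replicate 2 it had a median of -0.97. The medians were -0.54 without cabozantinib replicate 1 and -0.60 without cabozantinib replicate 2. The median of the ATF4 list was between -0.87 and -0.46 with each array left out in turn. In both lists fewer members were called lower without either cabozantinib array, and calls over all genes fell as well. The ER stress response element was searched for as CCAAT and CCACG with any 9 bases between them on either strand. It was present in 10 of 23 members with a promoter sequence, in 0.17% of all kept genes with one and in 0.119% of all promoters. Among the 7 called lower, Creld2 and Derl3 held it, and their promoters are shown for that reason, with the element in capitals. Both lie on the plus strand, Derl3 at chr10:75893148-75893447 and Creld2 at chr15:88819396-88819695.
Derl3: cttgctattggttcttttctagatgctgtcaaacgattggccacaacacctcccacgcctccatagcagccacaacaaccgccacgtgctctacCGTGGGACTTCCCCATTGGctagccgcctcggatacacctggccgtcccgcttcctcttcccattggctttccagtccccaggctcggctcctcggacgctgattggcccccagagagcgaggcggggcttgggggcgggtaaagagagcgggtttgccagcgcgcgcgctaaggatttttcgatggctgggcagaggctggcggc
Creld2: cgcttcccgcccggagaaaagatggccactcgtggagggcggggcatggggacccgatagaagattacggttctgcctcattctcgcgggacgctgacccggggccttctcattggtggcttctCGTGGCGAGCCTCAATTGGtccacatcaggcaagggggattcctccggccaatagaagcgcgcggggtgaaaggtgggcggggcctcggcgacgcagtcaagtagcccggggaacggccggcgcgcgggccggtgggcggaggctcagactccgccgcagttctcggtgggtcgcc
The other members that held the element, among them Hspa5 and Hsp90b1, were not called.

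**Figure D3:**
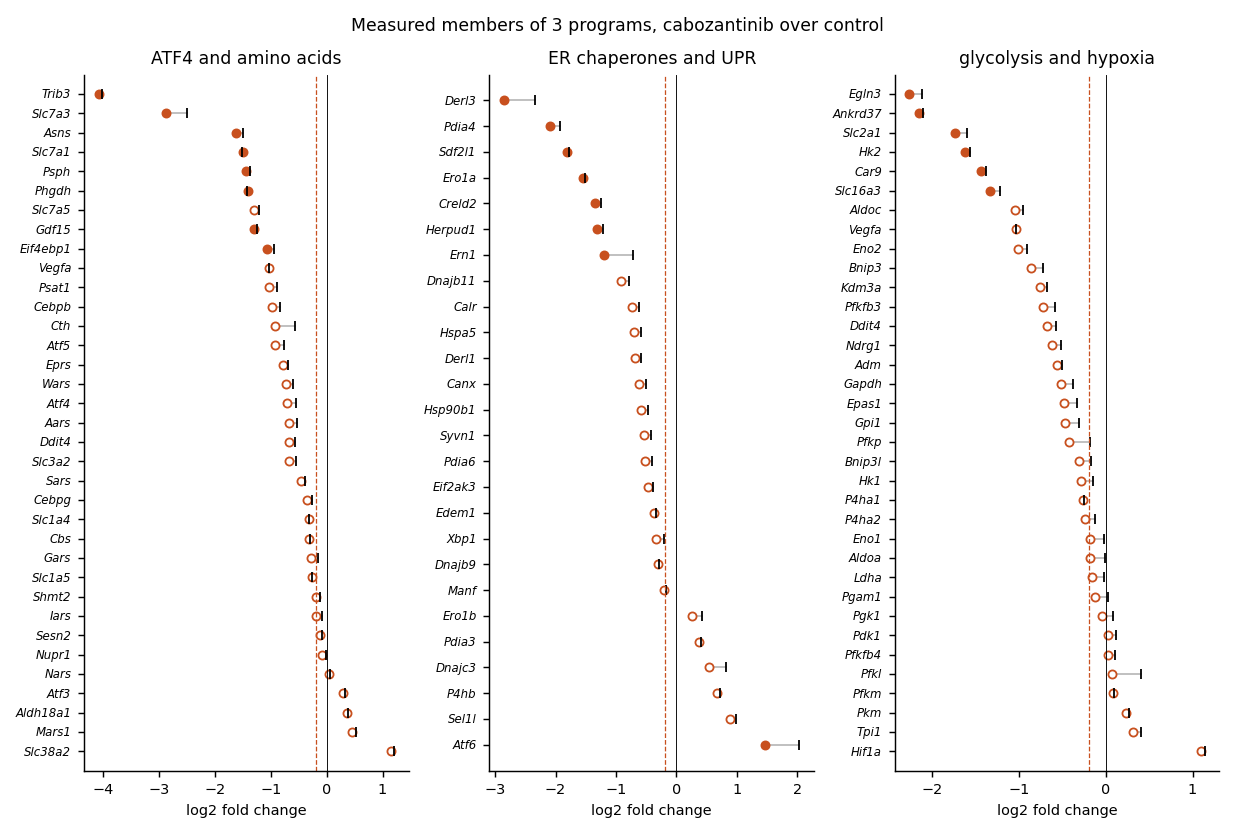
Log2 fold change (cabozantinib over control, x axis) of each measured member (y axis) of the ATF4, ER and glycolysis lists. Filled points were called, open points were not, the black tick gives the change with quantile normalization, and the dashed line is the median of all genes (-0.19). Trib3 lies at -4.08, Derl3 at -2.85 and Egln3 at -2.26, and Atf6 (1.46) is the filled point to the right of 0.

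Glucose use and the hypoxia response gave 6 members called lower and 0 higher of 35 (17.1%, against 13.1% of all genes), with a median of -0.47 (-0.30 with quantile normalization). The median level of the members was 2.91, in a quintile in which 2.59% of all genes were called lower. Of the 14 hypoxia-response genes in the list, 12 had both cabozantinib arrays below both control arrays, an order seen in 37.1% of all genes. Slc2a1, the glucose transporter GLUT1, was at 4.77 and 5.41 in the control samples and at 3.24 and 3.48 with cabozantinib (log2 fold change -1.73, SE 0.37, adjusted p = 0.00436). Hk2, the inducible hexokinase, was at 2.95 and 3.45 against 1.50 and 1.67 (-1.62, adjusted p = 0.00565). For both genes the undifferentiated cells were as high as the control samples, and the cabozantinib samples stood apart below. Egln3, an oxygen-sensing hydroxylase induced by HIF1, was at 0.16 and -0.24 against -2.35 and -2.25 (-2.26, adjusted p = 0.00102), with -2.62 at its other probe. Ankrd37, another HIF1 target, was at 2.26 and 2.89 against 0.37 and 0.47 (-2.15, adjusted p = 0.0014). Car9, a carbonic anhydrase of hypoxic cells, fell by 1.44 (adjusted p = 0.0118), and Slc16a3, the lactate exporter, by 1.33 (adjusted p = 0.0214). Vegfa, the ligand of VEGFR2, had -1.03 (adjusted p = 0.0706), with separate values. Apart from Hk2 the enzymes of glycolysis did not pass, among them Gapdh at -0.51 (4 other probes between -0.69 and 0.97), Ldha at -0.16 and Pgk1 at -0.04. Pgk1 was above 0 with quantile normalization (0.08), and the samples overlapped for each of these 3 enzymes. Hif1a itself had 1.1 with overlapping samples (adjusted p = 0.128). Without cabozantinib replicate 1 the median of the list was -0.24, and fewer members were called, as over all genes. The core of the hypoxia response element, TACGTG on either strand, was in 8 of 32 members with a promoter sequence. It was in 4.13% of all kept genes with one and in 3.23% of all promoters. Among the 6 called members it was in Car9 and Ankrd37, and the other members that held it were not called. The promoter of Ankrd37, on the minus strand at chr8:45999801-46000100, is shown because it holds the letters at 2 places.
Ankrd37: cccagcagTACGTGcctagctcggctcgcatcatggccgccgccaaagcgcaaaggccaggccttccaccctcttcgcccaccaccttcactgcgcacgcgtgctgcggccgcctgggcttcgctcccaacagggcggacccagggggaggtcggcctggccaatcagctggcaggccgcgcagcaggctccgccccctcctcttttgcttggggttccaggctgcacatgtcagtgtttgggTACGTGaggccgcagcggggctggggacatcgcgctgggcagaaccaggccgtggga

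Among early response genes and feedback genes of receptor kinase signaling, 3 of 26 were called lower (11.5%, against 13.1% of all genes) and 0 higher. The median level of the members was 0.79, in a quintile in which 6.14% of all genes were called lower. All 3 called genes were in the feedback and target group, in which 8 of 14 had separate, lower values (37.1% of all genes did). The median of that group was -0.65 (-0.55 with quantile normalization). Spry4, a Sprouty protein that ERK signaling induces and that restrains the same pathway, was at -0.69 and -0.78 in the control samples and at -2.55 and -2.58 with cabozantinib (log2 fold change -1.83, SE 0.35, adjusted p = 0.00262). Spry2 was at -2.68 and -2.78 against -4.52 and -4.24, a dim signal with a change of -1.65 (-1.08 with quantile normalization, adjusted p = 0.0046). Etv1, a transcription factor downstream of ERK, was at 0.70 and 0.83 against -0.16 and -0.56 (-1.13, adjusted p = 0.0347). The groups were separate for each of these 3 genes. Dusp6, the ERK phosphatase, had -0.21, Fos -0.32 and Egr1 0.09, with overlapping samples and no call. Without cabozantinib replicate 1 the median of the 26 was -0.30, and calls were fewer, as over all genes. The receptors that cabozantinib blocks were mostly not called. Met had -0.67 at a dim probe (-0.06 with quantile normalization, adjusted p = 0.23), Kdr (VEGFR2) -0.73 (adjusted p = 0.194), with -1.93 at its other probe, and Axl 1.05 (adjusted p = 0.0536). By real-time RT-PCR the study found both Met and Kdr expressed in its osteoblasts. Met was similar before and after differentiation, and Kdr was low before it and higher after. Neither gene is in its tables of genes changed by cabozantinib. Ntrk2, the receptor TRKB, was the called member at -1.17 (adjusted p = 0.0304), but its other probe gave 0.63.

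Complement gave 6 members called lower and 1 higher of 21 (28.6% and 4.76%, against 13.1% and 2.94% of all genes), with a median of -0.55 (-0.38 with quantile normalization). All 4 measured genes of the alternative pathway had separate, lower values, an order seen in 37.1% of all genes. Cfd, the protease factor D, which is also an adipocyte product, was at -0.42 and 0.45 in the control samples and at -3.88 and -3.43 with cabozantinib (log2 fold change -3.67, SE 0.38, adjusted p = 1.8e-05). C3, on which all complement pathways converge, was at 2.82 and 3.59 against 1.62 and 1.88 (-1.45, adjusted p = 0.012), with -0.66 at its other probe. Both were far lower in undifferentiated cells, where C3 was at -0.19 and -0.84. The measured terminal components C6, C7 and Hc (C5) were called lower with changes between -1.40 and -1.24, all at dim probes with quantile-normalized changes between -0.80 and -0.57. Cd59a, the membrane inhibitor of the terminal complex, went the other way, from -2.04 and -1.89 to 0.16 and -0.09 (2.00, adjusted p = 0.00164). Cd55, an inhibitor of the C3 convertase, was lower (-1.61, adjusted p = 0.00512). With each array left out in turn the list median was between -0.87 and -0.35. Fewer members were called without either cabozantinib sample, as over all genes.

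Chemokines and inflammatory cytokines had 4 members called lower and 0 higher of 33 (12.1%, against 13.1% of all genes), with a median of -0.41. Separate, lower values were found for 15 members (45.5%, against 37.1% of all genes). The median level of the members was 1.89, in a quintile in which 2.59% of all genes were called lower. Lcn2, an iron-binding protein of innate immunity, was at 2.15 and 3.20 in the control samples and at 0.16 and 0.72 with cabozantinib (-2.24, adjusted p = 0.00166). The chemokines Ccl6 (-1.37, adjusted p = 0.0121) and Ccl4 (-1.24, adjusted p = 0.0225) and the cytokine Il11, which is in the study's tables (-1.50, adjusted p = 0.00754), were also lower. The list median was between -0.52 and -0.30 with each array left out in turn. Calls were fewer without either cabozantinib replicate, as over all genes. Among 44 interferon-stimulated genes, Oasl1 alone was called (-1.47, adjusted p = 0.0112), 19 members (43.2%, near the 37.1% of all genes) had separate, lower values, and the median was -0.29.

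**Figure D4:**
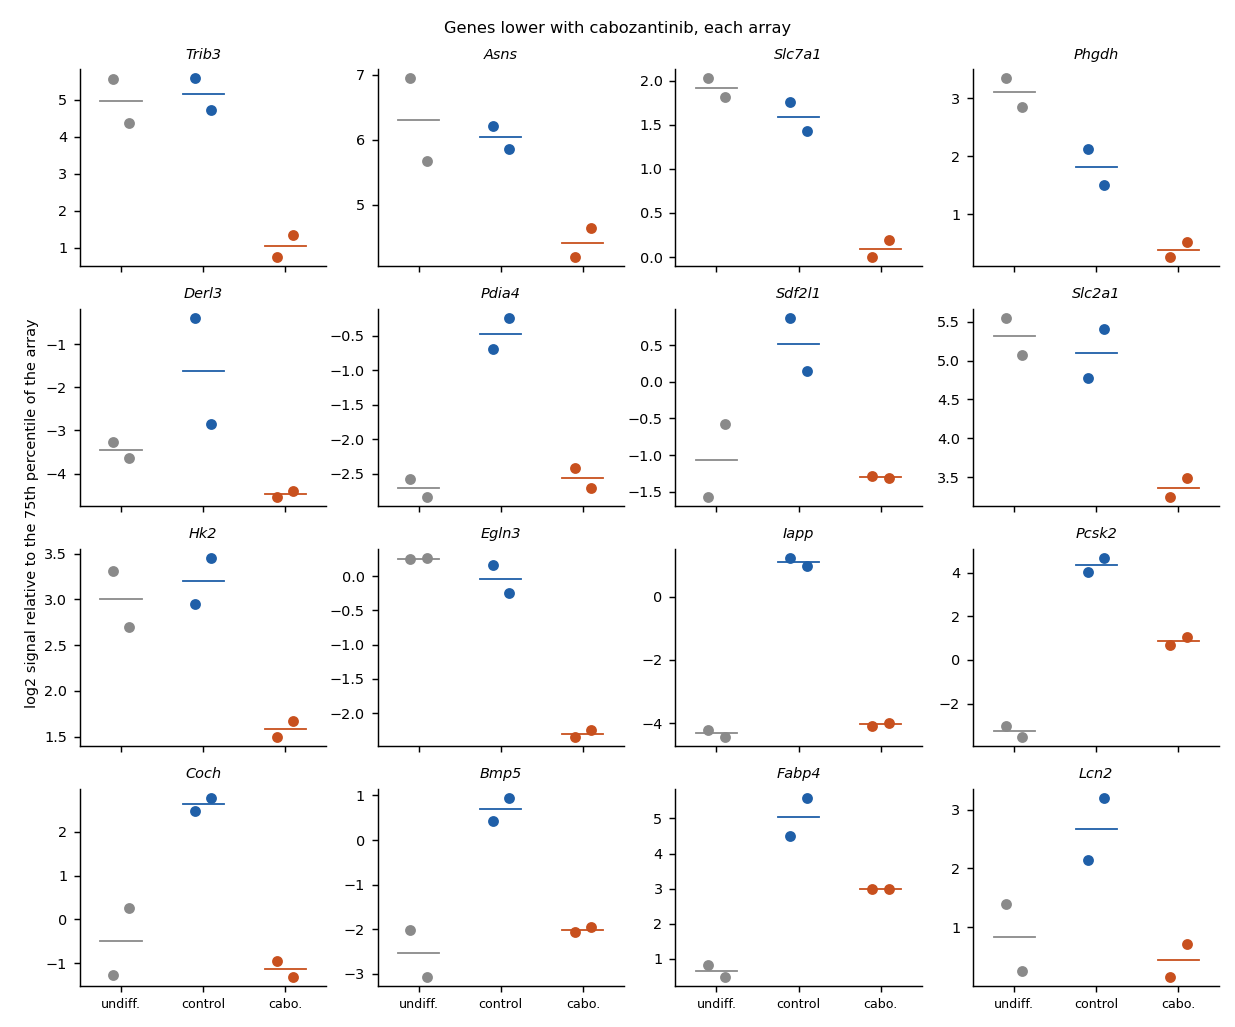
Log2 signal relative to the 75th percentile of the array (y axis, its own range in each panel) for 16 genes lower with cabozantinib in undifferentiated, control and cabozantinib samples. Each point is an array, 2 per group, and the bar is the group mean. Trib3, Asns, Slc2a1 and Hk2 are high in undifferentiated and control cells alike, whereas Iapp, Pcsk2 and Fabp4 are low in undifferentiated cells and highest in the control samples.

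A few mitotic genes were called higher with cabozantinib. Of 33 measured members 4 were called higher (12.1%, against 2.94% of all genes) and 0 lower, 19 had both cabozantinib arrays above both control arrays (57.6%, against 14.6%), 0 had both below, and the median was 0.43 (0.51 with quantile normalization). Ccna2, cyclin A2, was at 0.75 and 0.42 in the control samples and at 1.66 and 1.63 with cabozantinib (log2 fold change 1.06, SE 0.35, adjusted p = 0.0459). Cenpa, the histone variant of centromeres, was at -3.76 and -4.50 against -1.93 and -3.10 (1.61, or 2.13 with quantile normalization, adjusted p = 0.012), Nek2, a centrosome kinase, changed by 1.43 (2.06 with quantile normalization, adjusted p = 0.023), and Hmmr, a spindle protein, by 1.38 (adjusted p = 0.0164). In each case the values lay between the control samples and the undifferentiated cells. All 6 measured mitotic kinases had separate, higher values, among them Plk1 at 0.73 and Aurka at 0.59, which were not called. Mki67, a marker of cycling cells, had 0.26 (adjusted p = 0.731), with 1.03 at its other probe. The DNA replication list was shifted less, with no member called higher. Its median was 0.10 (0.21 with quantile normalization), against -0.19 (-0.02) for all genes. In each direction 10 of 37 members (27.0%) were separate, against 14.6% of all genes higher and 37.1% lower. Tyms, thymidylate synthase, was the called member at -1.45 (adjusted p = 0.0105). The median of the mitotic list was between 0.30 and 0.70 with each array left out in turn. Its calls were fewer without either cabozantinib replicate, as over all genes.

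Among the genes that time the cell cycle, Ccnd1, cyclin D1, was at -0.37 and -0.22 in the control samples and at 1.81 and 1.30 with cabozantinib (1.85, SE 0.36, adjusted p = 0.00279), below the 2.78 and 3.08 of undifferentiated cells. Cdkn1c, the inhibitor p57, rose too, from 0.74 and 0.37 to 2.15 and 1.73 (1.38, adjusted p = 0.013), although it was lower still, at -0.94 and -0.38, in undifferentiated cells. Rbl2, the pocket protein p130, had 1.67 (adjusted p = 0.0214). The p53 targets Plk2 (-1.52, adjusted p = 0.00769) and Gadd45a (-1.19, adjusted p = 0.0307) fell, and Cdkn1a, the p53 target p21, had 0.70 and was not called (adjusted p = 0.254).

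Actin, smooth muscle and SRF or YAP target genes had 8 members called higher and 2 lower of 37 (21.6% and 5.41%, against 2.94% and 13.1% of all genes), with a median of 0.25 (0.54 with quantile normalization). Actg2, smooth muscle gamma-actin, was at 2.47 and 4.08 in the control samples and at 4.91 and 5.55 with cabozantinib (log2 fold change 1.96, SE 0.44, adjusted p = 0.00622). Tpm2, a tropomyosin, was at 1.51 and 2.63 against 3.28 and 3.49 (1.31, adjusted p = 0.0265), with 2.02 at its other probe. Tead1, the DNA-binding partner of YAP, was at 1.56 and 0.23 against 3.23 and 2.61 (2.03, adjusted p = 0.00388), but its other probe gave -0.69. The control samples were spread widely in all 3 cases and did not reach the cabozantinib samples. Ajuba (1.72, or 2.23 with quantile normalization, adjusted p = 0.00811), Ankrd1, a YAP target (1.31, adjusted p = 0.0179), Cnn2 (1.31, adjusted p = 0.0158), Lmod1 (1.19, adjusted p = 0.0365) and Synpo2 (1.18, adjusted p = 0.0345) were also higher. The other probes of Cnn2 and Synpo2 gave -0.26 and -1.11. Acta2, smooth muscle alpha-actin, had 0.55 (adjusted p = 0.384). Mylk was called lower at a dim probe (-1.49, or -0.85 with quantile normalization). Without control replicate 1 the median of the list was -0.02. Calls were fewer without either cabozantinib replicate, as over all genes. Among 38 integrin and focal adhesion genes, 5 were called higher (13.2%) and 3 lower (7.89%), against 2.94% and 13.1% of all genes. The list median of 0.19 became -0.07 without control replicate 1. Ilk, the integrin-linked kinase, was at 1.91 and 0.84 against 3.25 and 2.64 (1.57, adjusted p = 0.0117), and Itga1, a collagen-binding integrin, and Vcl, vinculin, changed by 1.74 (adjusted p = 0.00841) and 1.36 (adjusted p = 0.0192). Itgb7, a leukocyte integrin, fell from -1.60 and -1.50 to -4.60 and -4.05 (-2.77, adjusted p = 0.000207).

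Matrix genes moved in both directions, beside 2.94% of all genes called higher and 13.1% called lower. Mmp2, gelatinase A, was at 0.23 and -0.61 in the control samples and at 2.33 and 1.50 with cabozantinib (log2 fold change 2.11, SE 0.40, adjusted p = 0.00241), against 2.21 and 3.21 in undifferentiated cells. Mmp3, stromelysin 1, was at 3.43 and 3.81 against 1.87 and 1.71 (-1.83, adjusted p = 0.00279), and Timp3, an inhibitor bound to the matrix, fell by 1.57 (adjusted p = 0.00681). The groups were separate for each. Of 30 collagens, Col6a2 (1.75, adjusted p = 0.0044) and Col4a1 (1.41, adjusted p = 0.0137) rose, whereas Col4a6 (-1.93, adjusted p = 0.00274, with 0.08 at its other probe) and the dim Col4a4 (-1.07, or -0.51 with quantile normalization, adjusted p = 0.0492) fell. Tnmd, tenomodulin of tendon cells, was at -1.16 and -1.11 against 1.88 and 0.67 (2.41, adjusted p = 0.00122), with undifferentiated cells as low as the control. In the list of 24 osteoblast matrix and mineralization genes the median was 0.02 and Ibsp, bone sialoprotein, a gene of the study's tables, was the called member at 1.50 (adjusted p = 0.00807), so 23 of the list did not pass. Lox, which crosslinks collagen, had 1.09 (adjusted p = 0.0668) and Aspn, asporin, 1.08 (adjusted p = 0.0662), with separate values. Among 16 osteocyte genes, Phex, a regulator of phosphate, fell from 2.95 and 2.58 to 1.52 and 1.62 (-1.20, adjusted p = 0.0257), and Mepe, in the study's tables, rose by 1.05 (adjusted p = 0.0469).

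Bone morphogenetic proteins differed among themselves. Bmp5 was at 0.43 and 0.94 in the control samples and at -2.07 and -1.95 with cabozantinib (log2 fold change -2.69, SE 0.36, adjusted p = 0.000281). Bmp7 was at 0.37 and 1.43 against -1.80 and -1.11 (-2.35, adjusted p = 0.00148). Bmp4 went up, from 3.40 and 4.96 to 5.19 and 5.75 (1.29, adjusted p = 0.0491), and Bmp2 had 0.15. Of these, the undifferentiated cells were low for Bmp5 alone. The list of 48 TGF-beta and BMP genes had 1 member called higher and 5 lower, with a median of -0.05. These were 2.08% and 10.4% of the list, against 2.94% and 13.1% of all genes. The BMP antagonist Chrdl1 fell by 1.30 (adjusted p = 0.028). Among Wnt genes, Wnt5a, a noncanonical ligand, was at -1.72 and -1.41 against -3.27 and -3.39 (-1.77, adjusted p = 0.00331), the antagonist Dkk2 fell by 1.50 (adjusted p = 0.0216), and Rspo2, which enhances Wnt signals, rose by 1.29 (adjusted p = 0.0398). The Notch ligand Dll3 fell by 2.42 (adjusted p = 0.000775), with -0.79 at its other probe, and Fgf10 rose by 1.27 (adjusted p = 0.0338). In the IGF system, Igf1 had -0.28 and was not called, Igfbp7 fell by 1.89 (adjusted p = 0.00331) and Igfbp4 rose by 1.56 (adjusted p = 0.0187). Dlk1, an imprinted Notch-like protein in the study's tables, was at 2.91 and 2.53 against -0.76 and -0.45 (-3.32, adjusted p = 2.1e-05). By real-time RT-PCR, however, the study found Dlk1 mRNA too low for an accurate measurement with or without the drug. The imprinted gene Mest rose by 1.24 (adjusted p = 0.0276).

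Among lists of basic cell maintenance, 4 of 35 proteasome genes (11.4%), 6 of 60 lysosomal genes (10%), 2 of 60 genes of oxidative phosphorylation (3.33%) and 1 of 69 ribosomal proteins (1.45%) were called higher, against 2.94% of all genes. Some had low levels in the control samples beside both other groups. Psmb1, a subunit of the proteasome core, was at 3.12 and 3.14 in undifferentiated cells, at -0.57 and 0.94 in the control samples and at 1.78 and 1.25 with cabozantinib (log2 fold change 1.33, SE 0.43, adjusted p = 0.0401). Eif3b, a translation initiation factor, was at 0.82 and 1.70, at -2.31 and -3.40, and at 0.21 and -1.05 in the same order (2.44, adjusted p = 0.00176). Rps19, a ribosomal protein, was at 3.17 and 2.49, at -1.93 and -0.30, and at 0.20 and -0.07 (1.18, adjusted p = 0.0716). The control samples were lowest in each case and the undifferentiated cells highest. Among the 69 cytosolic ribosomal proteins the SD over members was 1.15 and 0.88 in undifferentiated cells, 1.85 and 1.76 in the control samples and 1.47 and 1.58 with cabozantinib, while their median change was -0.10 and Rpl28 (1.24, adjusted p = 0.0347) was the called member. Atp6ap1, an accessory subunit of the proton pump that acidifies lysosomes, was at -0.24 and 1.27 in undifferentiated cells, at -4.01 and -3.92 in the control samples and at -0.46 and -2.66 with cabozantinib (2.41, adjusted p = 0.00372). Its cabozantinib samples were far apart but both above the control. The pump subunits Atp6v0d1 (1.64, adjusted p = 0.00888) and Atp6v1e1 (1.17, adjusted p = 0.028) were also higher, and the 11 measured pump subunits had a median of 0.68. Psap, the precursor of the saposins, rose from 2.97 and 2.20 to 4.28 and 3.70 (1.40, adjusted p = 0.0161), whereas the 60 lysosomal genes had a median of -0.06, with 6 called higher and 1 lower. Psmd8, Psmd13 and Psmb7 of the proteasome, Atp5d and Ndufs8 of oxidative phosphorylation, and Gpx1 and Gstp1 of antioxidant defense followed the same order, with changes between 1.06 and 1.63. By group mean the same order held for called genes of other programs above, among them Ccnd1, Cenpa, Hmmr, Cnn2, Ankrd1 and Ajuba. It did not hold for Cdkn1c and Tnmd, which were highest with cabozantinib. RNA quality was not given for single samples, and its part, like that of the slide, in all these low control values was not tested. Calls among the lysosomal and proteasome genes were fewer without cabozantinib replicate 1, as over all genes.

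**Figure D5:**
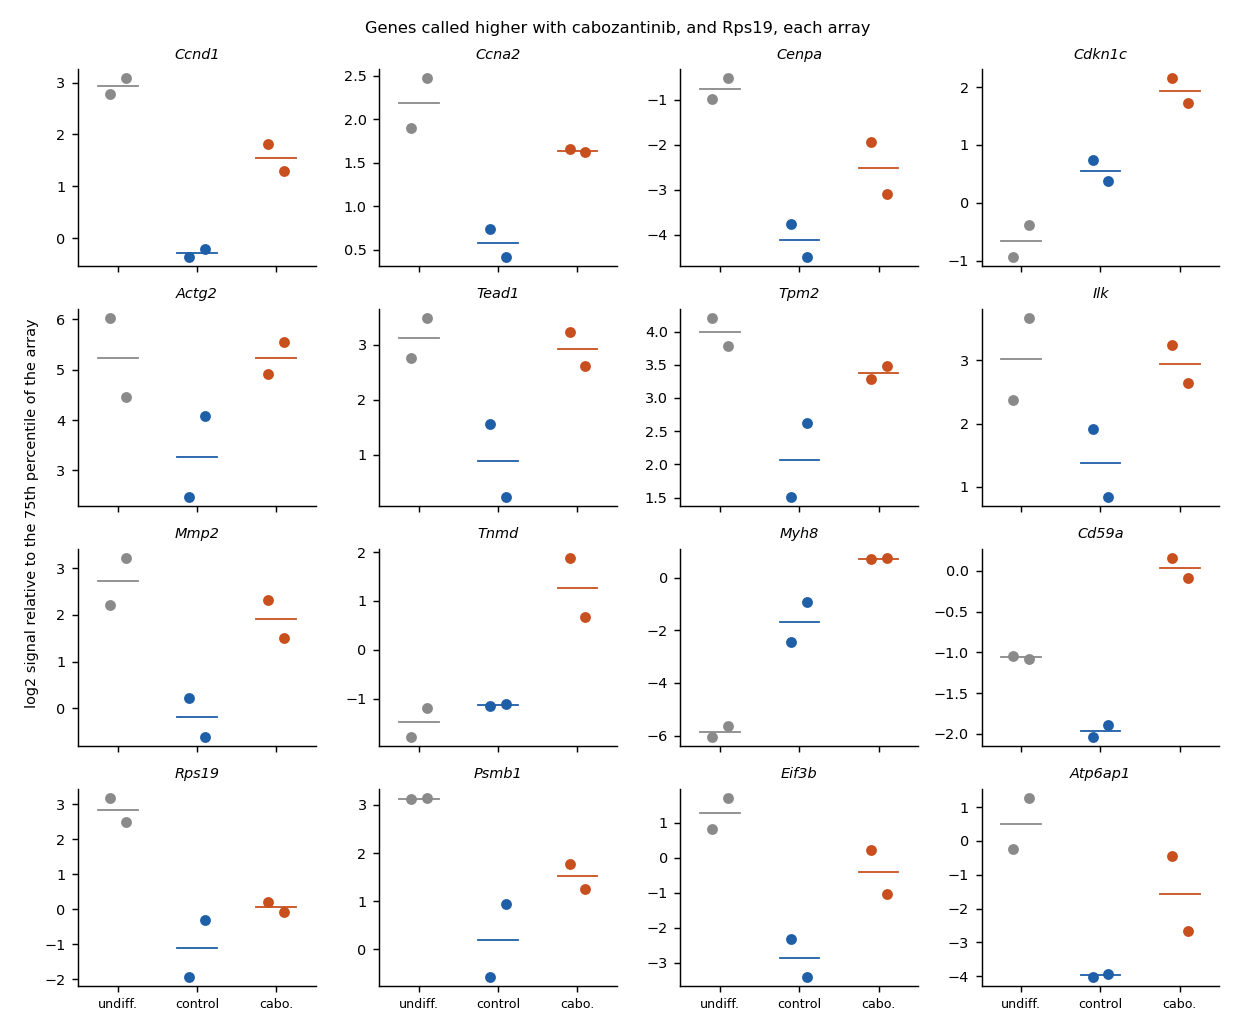
Log2 signal relative to the 75th percentile of the array (y axis, its own range in each panel) for 15 genes called higher with cabozantinib and for Rps19 in undifferentiated, control and cabozantinib samples. Each point is an array, 2 per group, and the bar is the group mean. The cabozantinib mean lies between the other groups for Ccnd1, Mmp2, Rps19, Psmb1, Eif3b and Atp6ap1, whereas Cdkn1c, Tnmd, Myh8 and Cd59a are highest with cabozantinib.

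The remaining lists gave few calls, beside 2.94% of all genes called higher and 13.1% called lower. No member was called among 46 mitochondrial ribosomal proteins, 38 transcription and chromatin regulators or 20 other receptor kinases, in which the largest differences were 1.14 for Mrpl19, -0.97 for Tet3 and -1.24 for Insr (1.65, -0.89 and -0.53 with quantile normalization). At an unadjusted p under 0.05, 5004 of all 18157 genes passed. Heat shock proteins had 1 call of 16, in the dim Hspb8 (1.87, or 2.40 with quantile normalization, adjusted p = 0.0292), at -3.71 and -4.70 in the control samples and at -1.0 and -3.68 with cabozantinib, so that replicate 2 was close to the control. Cholesterol synthesis had 2 of 31, in Fdft1, squalene synthase (1.76, adjusted p = 0.0047, with -0.70 at its other probe), and Hsd17b7 (1.56, adjusted p = 0.0128). Of 13 genes listed under fatty acid oxidation, Cpt1c (1.91, adjusted p = 0.00274) and Ehhadh (1.43, or 2.06 with quantile normalization, adjusted p = 0.0331) were called higher. Pdk4, which diverts glucose from oxidation, fell by 1.25 (adjusted p = 0.0323). Of 13 clock genes, Ciart was lower (-2.38, adjusted p = 0.000655), and Hlf was at a dim probe (-1.27, or -0.68 with quantile normalization). Cyp27b1, which activates vitamin D, was called lower at a dim probe (-1.69, or -1.06 with quantile normalization). MHC class II had 1 gene called higher, H2-Eb1 (1.04, adjusted p = 0.049), and 2 lower, H2-DMa (-1.63, or -1.11 with quantile normalization) and H2-Ob (-1.17, or -0.47), of 7.

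The genes with the largest changes lay outside these programs for the most part. Among the 1744 genes that held over 3 scalings, Car6, a secreted carbonic anhydrase, was at 3.05 and 1.0 in the control samples and at -3.68 and -3.19 with cabozantinib (log2 fold change -5.46, or 44.0-fold, SE 0.48, adjusted p = 3.48e-06). Iapp, the hormone amylin, was at 1.22 and 0.97 against -4.08 and -4.01 (-5.14, adjusted p = 7.1e-08), and undifferentiated cells were at -4.22 and -4.44. Its cabozantinib samples, though flagged well above background, were near the undifferentiated cells, and the control samples alone were bright. Coch, an extracellular protein, was at 2.48 and 2.77 against -0.96 and -1.31 (-3.76, adjusted p = 6.1e-06), and Pcsk2, a protease that matures hormones, was at 4.06 and 4.68 against 0.68 and 1.03 (-3.51, adjusted p = 1.8e-05), with -3.42 at its other probe. Ahsg, fetuin-A, an inhibitor of mineral growth, was at -0.52 and 0.61 against -3.95 and -3.25 (-3.65, adjusted p = 3.38e-05). AA467197 had -3.86, and Tmem92, Cdh4, Hepacam, Mctp2 and Frmd7 had changes of -3.27 to -2.83 (-2.82 to -2.35 with quantile normalization), at dim probes. The 15 highest were led by Myorg, a glycosidase, at -4.08 and -5.03 in the control samples and -1.06 and -2.07 with cabozantinib (3.0, adjusted p = 0.000342). Rasgrp1, an activator of RAS, was at -5.18 and -4.52 against -2.04 and -1.82 (2.92, or 3.43 with quantile normalization, adjusted p = 0.000157), and Kcnk1, a potassium channel, was at -4.26 and -3.80 against -1.20 and -1.04 (2.91, adjusted p = 0.000128). For Rasgrp1 and Kcnk1 the undifferentiated cells were nearer the control, and the cabozantinib samples alone were high. Dhrs1, Lgals9, Ldb3, Eif3b, Dact1, Atp6ap1, Myh8, Tnmd, Ddah1, Tex15, Kdelr3 and Ywhab followed with changes of 2.68 to 2.30, and the other probe of Ldb3 gave -0.59.

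Some probes were well above background in 1 group only, and their ratios are given as bounds. The bound sets the mean of the bright group against the lowest signal well above background on each array of the dim group, or the probe's own signal where that was higher. Of 39429 probes, 225 (0.571%) were well above background on both cabozantinib arrays and neither control array, and 2286 (5.8%) showed the reverse. The largest bounds with cabozantinib were for Inka2, at least 7.96-fold higher, Mei4, at least 6.75-fold, Kcnab3, at least 6.07-fold, and Slc6a2, the noradrenaline transporter, at least 6.0-fold, beside 1 unnamed transcript. The cabozantinib samples of Kcnab3 were far apart, at -1.90 and -4.71, and the dimmer of them alone gave a bound of 2.29-fold. Inka2 was well above background in the undifferentiated cells as well, and Mei4 and Slc6a2 were not. In the other direction 2310057J18Rik was at least 8.53-fold lower, Mbd3l1 at least 7.38-fold and the olfactory receptor gene Olfr1442 at least 7.22-fold lower, beside 2 unnamed transcripts.

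Markers of other cell types were examined because calvarial cultures can hold other cells, and in such samples fewer cells of a type and less RNA per cell cannot be told apart. The calls of these short lists stand beside 2.94% of all genes called higher and 13.1% called lower. Macrophage markers were present in the control and cabozantinib cultures alike, with 0 of 20 called. Their summed signal was 893 and 1183 times the array's 75th percentile in the control samples, 859 and 1033 with cabozantinib and 209 and 110 in undifferentiated cells. Csf1r, the receptor that defines the lineage, was at 6.74 and 7.54 against 6.67 and 7.26, with no separation, and its other probe gave -1.50. Osteoclast markers had 1 gene called higher, Ckb (1.16, adjusted p = 0.0336), and 1 lower, Ocstamp (-1.13, adjusted p = 0.034), of 11, and Ctsk, cathepsin K, had -0.17. Of 10 adipocyte markers, 3 were called lower (30%) and 1 higher (10%). Fabp4, a fatty acid carrier, was at 4.51 and 5.58 in the control samples and at 3.0 and 2.98 with cabozantinib (-2.05, adjusted p = 0.00248), Adipoq, adiponectin, fell by 1.36 at a dim probe (a change of -0.89 with quantile normalization, adjusted p = 0.0374), and Cfd is described with complement. Pparg, the master regulator of fat cells, was at 2.17 and 2.86 against 1.67 and 1.24 (-1.06, adjusted p = 0.0575), while Cebpa rose by 1.34 (adjusted p = 0.0214). The summed adipocyte signal was 76.7 and 107 in the control samples and 64.4 and 66.6 with cabozantinib. These markers moved with the complement list through Cfd, and their part in it was not tested. Muscle markers were split, with Myh8, a fetal myosin (2.41, adjusted p = 0.00162), Acta1, skeletal actin (1.87, adjusted p = 0.00263), and Myh1 (1.47, adjusted p = 0.0214) higher, and the dim regulators Pax7, Myod1 and Myog lower by 1.82, 1.64 and 1.16 on the log2 scale (changes of -1.24, -1.11 and -0.37 with quantile normalization). The summed muscle signal was 4.81 and 8.27 in the control samples and 10.2 and 11.6 with cabozantinib. Chondrocyte markers Matn3 (-2.05, adjusted p = 0.00154) and Snorc (-2.16, adjusted p = 0.00179) and endothelial markers Cdh5 (-2.40, or -1.77 with quantile normalization, adjusted p = 0.000655) and Plvap (-1.09, adjusted p = 0.043) were lower, and no member of those lists was called higher. The called share was 13.3% of 15 chondrocyte markers, near the 13.1% of all genes, and 22.2% of 9 endothelial markers. The median level of the endothelial markers was -3.12, at the edge of the dimmest quintile, in which 33.2% of all genes were called lower. Their median change was -0.56 (0.004 with quantile normalization), and 4 of the 9 lay above 0. Lymphocyte markers had 4 of 6 called lower (66.7%), among them Il7r at 3.38 and 3.23 against 1.84 and 2.15 (-1.31, adjusted p = 0.0157). Their summed signal was 18.8 and 19.5 in the control samples and 8.79 and 11.2 with cabozantinib. The lists of neutrophil, mast cell, erythroid, neural and epithelial markers rested on 3 to 11 measured genes, with 2 or 3 called lower in each and at most 1 higher. Among fibroblast and tenocyte markers, Pi16 was lower (-1.17, or -0.76 with quantile normalization, adjusted p = 0.049) and Tnmd higher.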

How the data were processed

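RNA of mouse calvarial osteoblast cultures was labeled with Cy3 and measured on 1-color Agilent arrays, 2 per group. The authors deposited scanner files whose intensity values were background-subtracted by Agilent Feature Extraction per the file headers (header build mm9), and a table of log2 values for 30439 probes whose normalization is not given in the sources used here. The log2 of the processed intensity, less the 75th percentile of its array, was averaged over the spots of a probe. Probes well above background on all 4 arrays were tested with limma 3.58.1 (R 4.3.3), cabozantinib against control with no block, and p-values were adjusted over all of these probes. Tables and plots were made with Python 3.11.15, pandas 2.3.3 and matplotlib 3.10.9. Scripts were tested on simulated data. With 2 arrays per group the test had 2 residual degrees of freedom beside a prior of 18.2, and the number of arrays limits the precision.

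Probes were named by transcript accession through RefSeq genes of GRCm38.p6, which matched 27234 of 39429 probes (69.1%), and promoter sequences came from RefSeq. A gene is shown at its brightest probe. The members and lists were chosen with earlier results of these data known, and no list was tested as a set. Named genes were the 15 highest and 15 lowest that held over 3 scalings, up to 4 called members per list and direction (the 2 with the largest change where none was called), genes that define a list, and the 5 largest bounds per direction. Beyond these, 14 list members were named after their values were seen: Ankrd1, Aspn, Atp6v1e1, Aurka, Cnn2, Eif4ebp1, Herpud1, Hsp90b1, Lmod1, Lox, Plk1, Slc16a3, Slc38a2 and Synpo2. Not every gene the rule allows is printed. Alternatives were other scalings, background correction (normexp with an offset of 50, on the median signal in place of the planned mean signal), filters on dim probes, tests, sample sets and probe averages. A restriction to brighter probes was added after seeing the data. Some genes are not reported here.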

Additional observations from a re-analysis of the deposited data

How the results depend on the processing

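Of 250 named genes, 199 were called, and 0 of these changed direction in the alternatives in which they were measured, but the adjusted p did not hold. The count of 0 is not a separate check. Of all 2911 genes called, 2905 had separate groups, so leaving out any array could not turn their sign. Several alternatives changed the test and not the difference of the means. No gene was called by limma with quantile normalization (0, smallest adjusted p 0.0653, 4469 genes at an unadjusted p under 0.05), with the authors' values (0, 0.0639, 4470) or with no filter on dim probes (0, 0.0555, 8912). The methods' t-test called 0 genes when paired (2726 at an unadjusted p under 0.05) and 0 when unpaired (3049). All 6 arrays in 1 fit gave 1 gene, or 2 with the replicate block. A filter at 2 of 4 arrays gave 4898 genes, and normexp 2065, of which 1761 were over 2-fold. Of probes in the brighter part, an alternative chosen after seeing the data, 330 genes were called, and 0 with quantile normalization (1350 at an unadjusted p under 0.05). Leaving out each array in turn gave 180 to 4604 genes, also over 2-fold, with 180 without cabozantinib replicate 1, 1090 without cabozantinib replicate 2 and 4604 without control replicate 1. The cause was not tested. Replicate numbers are only names here; with them as a replicate block 3944 genes were called, 3145 over 2-fold, and replicate differences of the 2 groups correlated at 0.42 over probes.

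Genes that were not called changed sign as follows, in log2 fold change. With normexp the values were Ctsk 0.14, Ldha 0.13, Srf 0.11. With quantile normalization the values were Nfe2l2 0.065, Pgk1 0.084, Yap1 0.11. With the authors' values the values were Nfe2l2 0.067, Pgk1 0.089, Yap1 0.11. With the mean of the probes of a gene the values were Hmox1 -0.37, Mrps2 -0.32, Srf 0.30. With quantile normalization of the brighter probes the values were Nfe2l2 0.065, Pgk1 0.084, Yap1 0.11. With each array left out in turn the ranges were Col1a1 -0.57 to 0.11, Csf1r -0.57 to 0.23, Ctsk -0.45 to 0.10, Dusp6 -0.46 to 0.048, Egr1 -0.37 to 0.55, Fcgr3 -0.30 to 2.40, Hmox1 -0.51 to 1.13, Igf1 -0.59 to 0.024, Lamp1 -0.53 to 0.26, Ldha -0.51 to 0.19, Nfe2l2 -0.67 to 0.56, Pgk1 -0.51 to 0.43, Shmt2 -0.47 to 0.081, Srf -0.46 to 0.23, Tagln -0.022 to 0.87, Yap1 -0.38 to 0.30. Spots well above background limit what could be compared, since dim genes carried most of the lower calls.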
